A study of Arabidopsis thaliana with 30 samples.

Results

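The 4 genes described here encode transcription regulators of 3 families: AT5G61890 and AT1G36060 are listed as ethylene response factors (ERF), AT2G22880 as a VQ motif protein, and STZ (AT1G27730, also named ZAT10) as a zinc finger protein. All were chosen by name with earlier results on these arrays known. For AT5G61890, AT2G22880 and STZ those results set the stumps at 5 h, 13 h and 22 h against the stump at 0 h, and for AT1G36060 the values that led to its choice are not given. Levels after cutting are therefore a description without a test. They are 4 of 13286 genes that had a probe set assigned to 1 gene and matched to the RefSeq annotation. Each gene had 1 probe set on the array: 247492_at for AT5G61890, 266800_at for AT2G22880, 261648_at for STZ and 263194_at for AT1G36060.

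The series followed regeneration of the Arabidopsis thaliana root after its tip was removed, on 30 Affymetrix ATH1 arrays of Col-0 wild-type tissue, with no transgene or mutation in any group. The intact tip at 4 days post germination (dpg) was 130 µm long (4 arrays), and the stump, the 70 µm next to that cut, was collected from 4 dpg seedlings 0 h (4 arrays), 5 h (4 arrays), 13 h (4 arrays) and 22 h (5 arrays) after the tip was cut off. The other groups were the tip at 8 dpg (3 arrays), a stump labelled 8 dpg (3 arrays) and a section of mature root between 270 and 340 in the labelled unit, harvested at once and serving as a wounded control that does not regenerate (3 arrays, age not labelled). The titles print these lengths in mm and the protocol in µm. The stump labelled 8 dpg is recut after 0 h by its title and is 192 h after the first cut by its source name, so it may be fresh or regenerated tissue. At least 25 tissue pieces went into each replicate, and the labels do not say whether replicates were separate sowings, so p-values measure the spread between these arrays.

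Wounding of plant tissue sets off rapid calcium, jasmonate and ethylene signalling, and genes for transcription regulators are among those switched on early. ERF proteins bind DNA through an AP2/ERF domain, and many of them act in responses to ethylene, jasmonate or injury. STZ is a C2H2 zinc finger protein with an EAR repression motif, known from salt, drought, cold and wound responses. VQ proteins carry a short motif through which many of them bind WRKY transcription factors.

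The medians of the 30 arrays lay between 66.1 and 141.8 signal units. The arrays of high median, over 120, were stump at 0 h replicates 1 (141.8) and 2 (121.3), tip at 4 dpg replicate 1 (126.65) and stump at 22 h replicate 1 (122.6). Marker sums differed most for the section: its dividing cell markers (3 of 15 listed had a probe set) summed to 314.8 to 339.3 signal units, below the lowest array of every other group. Of its differentiated root markers (4 of 19) only AT4G30170 stood out, at a mean of 9726 in the section against 2329 at 0 h, 154 in the tip at 4 dpg and 18.6 in the tip at 8 dpg. That gene made up nearly all of the list's sum of 7235.3 to 11922.2 in the section, while EXPA7, EXPA18 and AT1G30870 had means of 43.4, 30.3 and 5.8 there and 300.0, 218.7 and 477.0 at 22 h. The stump at 5 h had a dividing cell sum of 487.9 to 774.6, against 730.7 to 1654.5 at 0 h, and its root tip and stem cell niche markers (4 of 18) went different ways. BBM rose, as given below, while PUCHI (162.3 at 0 h and 39.9 at 5 h), JKD (131.7 and 32.6) and CR4 (29.65 and 12.8) had lower means at 5 h and were not called, with a list median of -0.82 and 3 of 4 genes at an unadjusted p under 0.05. The single green tissue marker with a probe set (of 16 listed) ranged from 5.9 to 202 over all arrays. In such bulk samples, fewer cells of a type and less RNA per cell cannot be told apart, and the part of cell makeup in the results below was not tested.

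AT5G61890 was highest in the stump at 5 h, where its signals were 1059.6, 885.3, 889.1 and 870.8 in the 4 replicates (926.2 ± 89.3, SD). At 0 h they were 291.7, 9.9, 55.7 and 27.1 (96.1 ± 132). All 4 arrays at 5 h lay above all 4 at 0 h, where replicate 1 was over 5 times as high as any other array. The fitted difference was 3.38 ± 0.443 (SE) on the log2(signal + 32) scale, or 10.4-fold on that scale. Without replicate 1 of the stump at 0 h it was 3.99.

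At 13 h the AT5G61890 signals were 439.4, 226.6, 415.7 and 651.2 (433.2 ± 174). At 22 h they were 295.1, 275.4, 529.4, 141.1 and 126.5 (273.5 ± 162). Every array of both times lay below every array at 5 h, and both groups overlapped the stump at 0 h only through its replicate 1. The log2 difference from 0 h was 2.26 ± 0.443 at 13 h and 1.58 ± 0.42 at 22 h, which is 66.9% and 46.8% of that at 5 h. Leaving out replicate 1 of the 0 h stump raised these differences to 2.87 and 2.19. The percentages, here and for the genes below, are shares of a log2 difference and not of the signal.

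In the tips, the section and the stump labelled 8 dpg, AT5G61890 was low. Its signals were 63.5, 134, 44.1 and 33.9 in the tip at 4 dpg and 39.5, 55.6 and 77.6 in the tip at 8 dpg. They were 43, 12.2 and 40.2 in the stump labelled 8 dpg and 18.6, 3.6 and 41.6 in the section. These 4 groups and the stump at 0 h overlapped with their neighbours in the order of levels. The section was wounded by its excision but harvested at once, and its AT5G61890 level lay 4.23 ± 0.478 below that of the 5 h stump on the log2 scale, with no overlap.

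**Figure D1:**
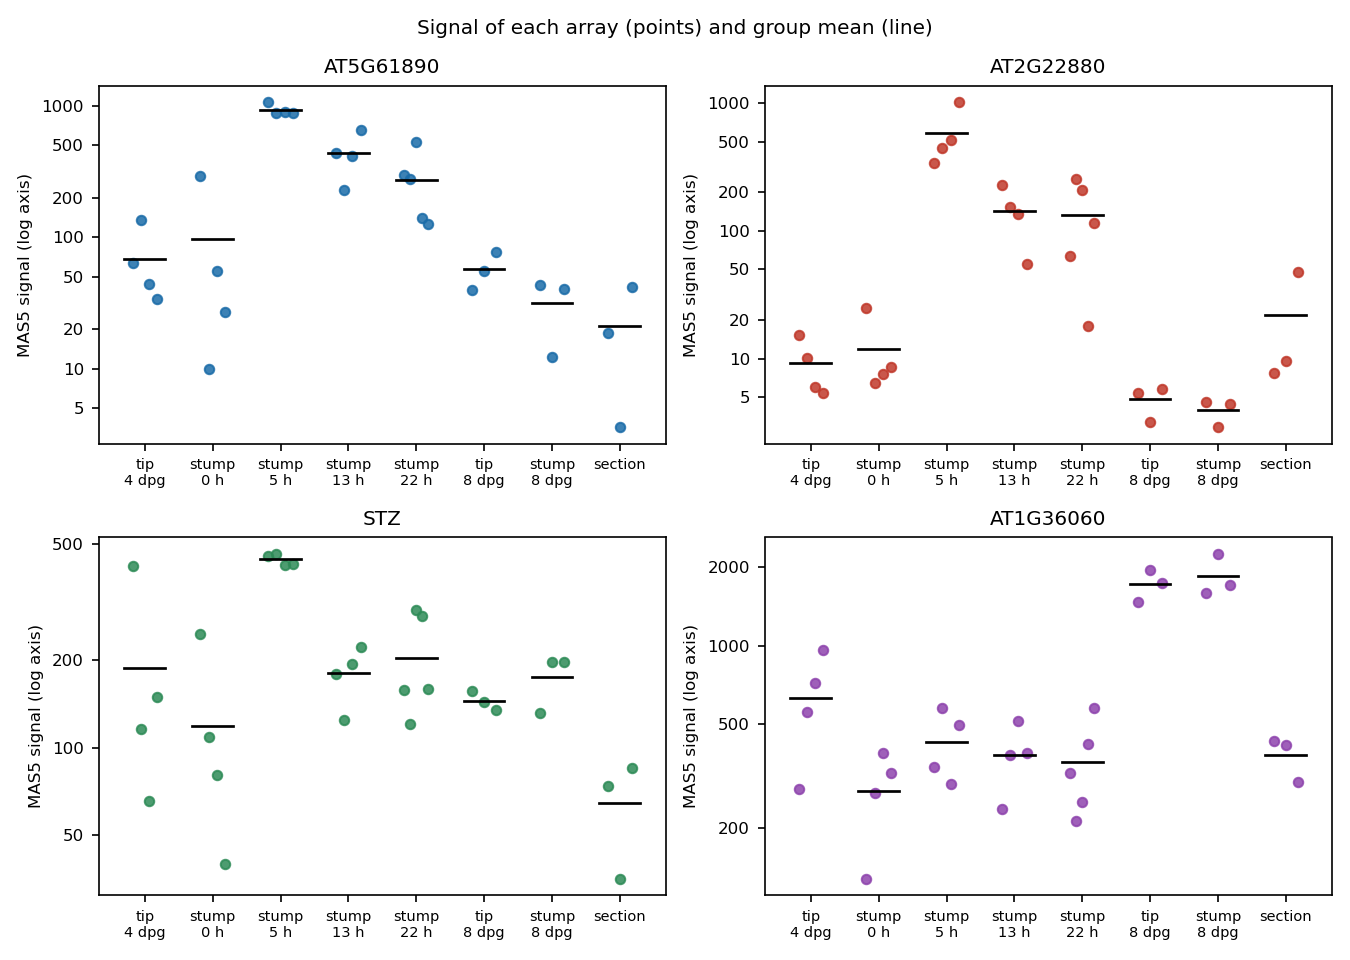
MAS5 signal of the 4 regulators (log axis) in each of the 30 arrays, by group, with points for arrays and a line for the group mean. AT5G61890, AT2G22880 and STZ are highest in the 4 arrays of the stump at 5 h, whereas AT1G36060 is highest in the 6 arrays of 8 dpg tissue.

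AT2G22880 was near the bottom of the scale at 0 h and had a large difference at 5 h. Its signals were 24.9, 6.5, 7.6 and 8.6 at 0 h (11.9 ± 8.71) and 343.5, 449.1, 512.8 and 1018.1 at 5 h (580.9 ± 300). The lowest array at 5 h was over 13 times the highest at 0 h. The fitted log2 difference was 3.71 ± 0.407, or 13.1-fold, a value that the pseudocount holds down for so dim a gene. The order of AT2G22880 and AT5G61890 by this difference turned with the setting, AT5G61890 being the higher with the larger pseudocount of the alternatives (2.38 against 2.26) and without replicate 1 of the stump at 0 h (3.99 against 3.84).

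AT2G22880 was lower again at the later times. It was 228.6, 152.8, 136.6 and 55.1 at 13 h (143.3 ± 71.2), all above the stump at 0 h and below the stump at 5 h. At 22 h it was 63.8, 255.5, 210.4, 18 and 115.2 (132.6 ± 99.2), a spread that took 1 array below the highest array at 0 h. The log2 difference from 0 h was 1.91 ± 0.407 at 13 h and 1.67 ± 0.386 at 22 h, or 51.5% and 44.9% of that at 5 h. The difference between 13 h and 22 h (-0.25) was smaller than its error.

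In the 4 other groups AT2G22880 stayed under 16 signal units in every array but 1. It read 15.2, 10.1, 6 and 5.4 in the tip at 4 dpg, 5.4, 3.2 and 5.8 in the tip at 8 dpg and 4.6, 2.9 and 4.4 in the stump labelled 8 dpg. The section read 7.7, 9.5 and 48.1, so its mean of 21.8 rested on 1 array. The deposited table carries no detection calls, so at this brightness the order of these groups is not given weight here.

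STZ had a moderate level everywhere and a narrow peak at 5 h. Its signals at 5 h were 456.6, 463.3, 425 and 428.1 (443.2 ± 19.5), the tightest of its groups relative to the mean, and those at 0 h were 246, 109.1, 80.8 and 39.8 (118.9 ± 89.4). The groups did not overlap. The log2 difference was 1.83 ± 0.362, or 3.56-fold, and it was 2.18 without replicate 1 of the stump at 0 h.

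At 13 h STZ was lower, at 179.2, 124.7, 194.5 and 222.3 (180.2 ± 41.1). At 22 h it read 158.1, 120.7, 298.1, 282.3 and 159.5 (203.7 ± 80.6). Both groups lay wholly below the 5 h arrays and overlapped with 0 h. The log2 differences from 0 h, 0.65 ± 0.362 at 13 h and 0.75 ± 0.343 at 22 h, were 35.3% and 41.1% of that at 5 h. Without the 4 arrays of high median, a setting added after the data were seen, they were 1.22 at 13 h and 1.38 at 22 h, and 2.4 at 5 h. Without replicate 4 of the stump at 0 h, its lowest array, they were 0.348 at 13 h and 0.455 at 22 h, and 1.53 at 5 h.

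In intact tips STZ covered a wide range, with 419.3, 116.4, 65.5 and 149.3 at 4 dpg and 156.3, 143.8 and 134.6 at 8 dpg. The highest of these, tip at 4 dpg replicate 1, is an array of high median and came close to the stump at 5 h. The stump labelled 8 dpg read 131.2, 197.6 and 197, and the section 73.7, 35.5 and 85.2. The section had the lowest mean, 64.8 ± 26, and overlapped with the stump at 0 h next to it in the order.

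AT1G36060 did not share the pattern of the other regulators, so the name wound-type is not drawn from its levels here. Whether it responds to wounding was not tested. Its difference at 5 h from 0 h was small but stayed positive in every setting tried (0.205 to 0.842). Its signals were 128.4, 272.6, 388.1 and 326.4 in the stump at 0 h (278.9 ± 111) and 344.3, 579.6, 295.2 and 499.1 at 5 h (429.6 ± 133). The groups overlapped, and the log2 difference of 0.61 ± 0.314 became 0.32 without replicate 1 of the stump at 0 h. At 13 h the signals were 238, 381.2, 516.4 and 388, and at 22 h they were 324.6, 214.3, 252.3, 419.4 and 577.2. The differences from 0 h were 0.45 ± 0.314 and 0.33 ± 0.298, and without the 4 arrays of high median they were 0.04 and -0.06.

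The high levels of AT1G36060 were in 8 dpg tissue. The tip at 8 dpg read 1465.2, 1939.5 and 1741.2 (1715 ± 238) and the stump labelled 8 dpg 1594.5, 2244.1 and 1701.3 (1847 ± 348). These overlapped with each other and lay above every other array of the series. The tip at 4 dpg came next with 282, 556.9, 721.7 and 959.5 (630 ± 285), and the section read 433, 416.6 and 300.1 (383.2 ± 72.5).

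On the log2 scale AT1G36060 was 1.51 ± 0.339 higher in the tip at 8 dpg than at 4 dpg and 2.67 ± 0.339 higher in the stump labelled 8 dpg than in the stump at 0 h. The section lay 2.18 ± 0.363 below the stump labelled 8 dpg. The tip at 4 dpg was 1.06 ± 0.314 above the stump at 0 h, with overlap. None of these differences was tested. Arrays of both 8 dpg groups (r of 0.969 to 0.976) and of the section (0.960 to 0.967) correlated more closely within groups than those at 4 dpg (0.793 to 0.945). The part of this difference between arrays in the level of AT1G36060 was not tested. The 8 dpg tip and stump also had high dividing cell sums, 1858.7 to 1911.8 and 1917 to 2231.2, against 1002.8 to 1764.7 in the tip at 4 dpg (3 of 15 markers). The sums were 730.7 to 1654.5 at 0 h, 487.9 to 774.6 at 5 h and 806.2 to 1594 at 13 h. In the section they were 314.8 to 339.3. At 22 h they ran from 942.5 to 2220.2, into the range of the 8 dpg groups, while AT1G36060 read 214.3 to 577.2 there. The part of dividing cells in the level of AT1G36060 was not tested.

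**Figure D2:**
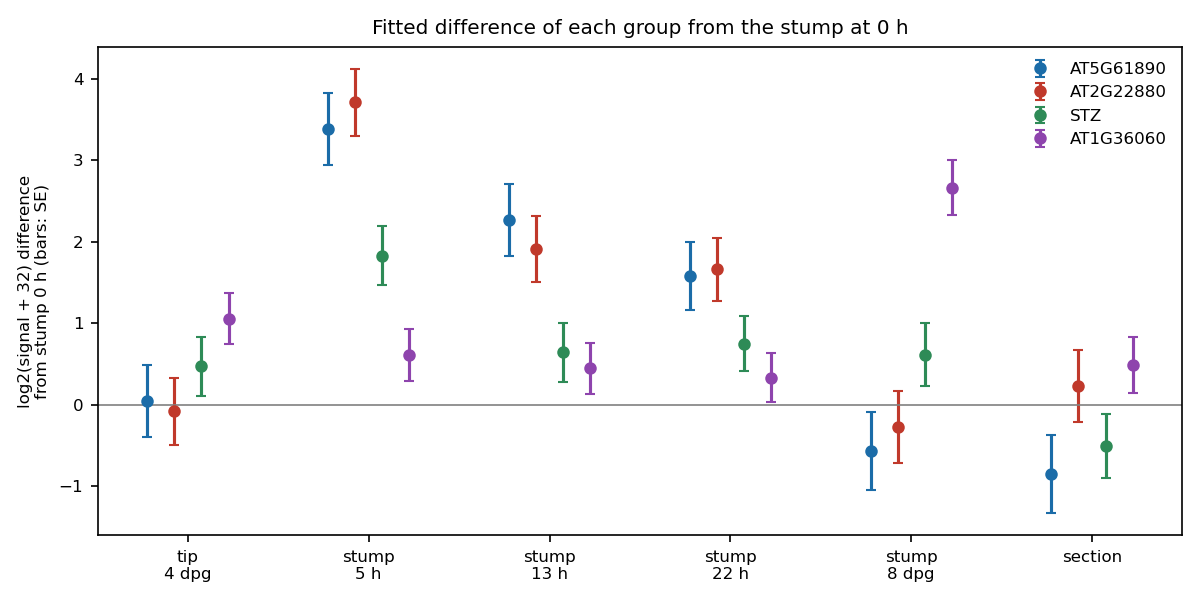
Fitted difference of each group from the stump at 0 h on the log2(signal + 32) scale, with SE bars, for the 4 regulators. The stump at 5 h is the highest point for AT5G61890 (3.38), AT2G22880 (3.71) and STZ (1.83), and the stump labelled 8 dpg for AT1G36060 (2.67); all these differences share the 0 h arrays.

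Comparisons among the tips, the stump labelled 8 dpg and the section ask whether age or the section set AT5G61890, AT2G22880 and STZ apart. Their differences use none of the time-course arrays, from 0 h to 22 h, on which these genes were chosen. Their p-values are not free of those arrays, because the spread came from a single fit that held every array of the series. There were 5 such comparisons and 15 pairs of gene and comparison. The fit in limma, with Benjamini-Hochberg adjustment over all 22746 probe sets, called 0 of the 15 (an adjusted p under 0.05 and a log2 difference of at least 1 in size). Arrays correlated more closely within the 8 dpg groups and the section (r of 0.960 to 0.976) than within the other groups (0.793 to 0.945). A spread shared by all groups can be too wide for the closer ones, so the lack of calls depends on this setting. An unadjusted p under 0.05 was reached by 2 pairs, and the differences ran from -1.12 to 0.51. These comparisons share arrays, so the values are not independent.

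The smallest adjusted p among the 15 belonged to STZ, which read -1.12 ± 0.418 in the section minus the stump labelled 8 dpg (limma, adjusted p = 0.0536, no overlap between the 3 and 3 arrays). Against the tip at 8 dpg the STZ difference of the section was -0.91 ± 0.418 (adjusted p = 0.14 by limma, no overlap), and against the stump at 0 h, whose arrays entered the choice, it was -0.50 ± 0.391 with overlap and no test. Those comparisons called 17.8%, 17.3% and 10.2% of all probe sets. All 3 readable dividing cell markers were called lower in the section than in each 8 dpg group (medians of -2.32 against the tip and -2.43 against the stump), and of the 4 differentiated root markers only AT4G30170 was called, with list medians of 0.13 and 0.12. The part of cell makeup in the STZ values was not tested. The call for STZ against the stump labelled 8 dpg passed the threshold in 5 of the 10 other settings tried, and in none of the 6 fits that left out 1 array of these groups.

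AT5G61890 and AT2G22880 were not called in these comparisons. For AT5G61890 the section minus the tip at 8 dpg gave -0.79 ± 0.511 (limma, adjusted p = 0.354, overlap). AT2G22880 gave 0.50 ± 0.47 in the section minus the stump labelled 8 dpg (adjusted p = 0.586 by limma, no overlap) and 0.47 ± 0.47 in the section minus the tip at 8 dpg (adjusted p = 0.623, no overlap). With a pseudocount of 1 the first of these was 1.75 (adjusted p = 0.143), and without section replicate 3 it was 0.175. A p above the threshold does not show that the levels were equal, and for so dim a gene the scale compresses differences.

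In comparisons that use the 0 h stump no test is given. For the 4 dpg tip minus the 0 h stump, the log2 differences were 0.04 ± 0.443 for AT5G61890, -0.08 ± 0.407 for AT2G22880 and 0.47 ± 0.362 for STZ, in a comparison that called 2.17% of all probe sets. The stump labelled 8 dpg minus the stump at 0 h gave -0.56 ± 0.478, -0.27 ± 0.44 and 0.62 ± 0.391 in the same order, with 6.8% of all probe sets called. With a pseudocount of 1 the AT2G22880 value was -1.198, and its arrays did not overlap. Without the 4 arrays of high median the STZ value was 1.19. The section minus the stump at 0 h gave -0.85 ± 0.478 for AT5G61890, or -0.24 without replicate 1 of the stump at 0 h, and 0.23 ± 0.44 for AT2G22880.

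Set against the tip at 4 dpg, the stump labelled 8 dpg gave -0.61, -0.19 and 0.14, where 1.19% of all probe sets were called. The tip at 8 dpg minus that at 4 dpg gave -0.10, -0.16 and -0.07, with 0.444% called. Neither comparison gave any of these genes an adjusted p under 0.05 by limma.

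The tip at 8 dpg minus the stump labelled 8 dpg gave 0.51 ± 0.511 for AT5G61890, 0.03 ± 0.47 for AT2G22880 and -0.21 ± 0.418 for STZ. For AT5G61890 the value ran from 0.216 to 0.971 over the other settings. In this comparison limma called 0% of all probe sets, while 238 had an unadjusted p under 0.05.

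Other genes of these families could be read only in part, and the number called at 5 h ran from 1 to 6 with the setting. Lists of 7 families of transcription regulators, drawn up from general knowledge of the families, held 41 other genes with a probe set assigned to them alone. In the stump at 5 h minus 0 h, limma called 2 of the 41 higher and 0 lower, 4.88% higher against 1.48% higher and 1.16% lower over all probe sets, and 4 rose and 3 fell at an unadjusted p under 0.05. Their median difference was 0.09, against -0.15 over all probe sets. At 13 h 1 of the 41 was higher and 0 lower (1.38% and 0.598% of all probe sets) and at 22 h 2 were higher and 0 lower (1.27% and 0.198% of all probe sets).

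Both regulators called higher at 5 h came from the VQ family, of which 15 of 33 other listed genes had such a probe set. AT3G56880 went from 576.7 ± 132 (SD, n = 4) at 0 h to 1931 ± 462 (n = 4) at 5 h, a log2 difference of 1.68 ± 0.273 (limma, adjusted p = 0.00019), and remained called in all 18 alternative settings. It was at 1003 ± 299 at 13 h and 1003 ± 309 at 22 h. AT4G20000 went from 23.8 ± 20 at 0 h to 124 ± 55.3 at 5 h (1.48 ± 0.36, adjusted p = 0.0168 by limma), and it was also called at 13 h (1.52, adjusted p = 0.0144) and 22 h (1.72, adjusted p = 0.00285). Its call at 5 h was lost in 4 of 18 alternative settings, among them leaving out stump at 5 h replicate 4 (1.28, adjusted p = 0.0743) and fitting the compared groups alone (adjusted p = 0.186), and its call at 13 h was lost in 3 of 18, among them leaving out stump at 13 h replicate 3 (adjusted p = 0.0557). At 22 h the call was lost in 2 of 19, when the compared groups were fitted alone (adjusted p = 0.117) and with the larger pseudocount (0.86). The median of the 15 VQ genes at 5 h was 0.09. Against STZ, at 1.83, the order turned with the pseudocount: with the larger one AT3G56880 was at 1.53 and STZ at 1.27, and with a pseudocount of 1 AT4G20000 was at 2.66 and STZ at 2.19.

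The few near relatives of the ERF members that could be read were not called at 5 h. Over all probe sets 1.48% were called higher and 1.16% lower there, so the lack of a call says little about sets this small. From the group of AT5G61890 only AT2G33710, 1 of 7 listed, had such a probe set, with 0.37 ± 0.447 (limma, adjusted p = 0.686). From the group of AT1G36060 5 of 9 had one and had a median of 0.13, among them AT5G65130 at 0.92 ± 0.306 (adjusted p = 0.0888) and AT1G64380 at 0.84 ± 0.46 (adjusted p = 0.314). AT1G64380 was called at 22 h, with 1.62 ± 0.436 (limma, adjusted p = 0.0469), but its 22 h signals ran from 51.7 to 454.1 and the call was lost in 8 of 18 alternative settings, among them leaving out replicate 1, 3 or 4 of the stump at 0 h or replicate 2 or 3 of the stump at 22 h (adjusted p of up to 0.17). Neither the 2 genes listed for ERF groups VIII and IX (of 23) nor the 5 listed for groups II to IV (of 20) included a called gene at 5 h.

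The 9 other C1-2i zinc finger genes, the family of STZ (of 21 listed), included 0 called genes at 5 h by limma, 1 at an unadjusted p under 0.05, and had a median of -0.17. They ranged from AT2G28710 at -0.76 ± 0.379 to AT3G10470 at 0.43 ± 0.353. The 4 WRKY genes with a probe set (of 30), the family that VQ proteins bind, were WRKY53 (0.11), WRKY22 (0.42), ZAP1 (0.83) and WRKY6 (0.31), with 0 called by limma and 0 at an unadjusted p under 0.05. At the shares called over all probe sets, 1.48% higher and 1.16% lower, sets of 9 and 4 genes would rarely hold a call.

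**Figure D3:**
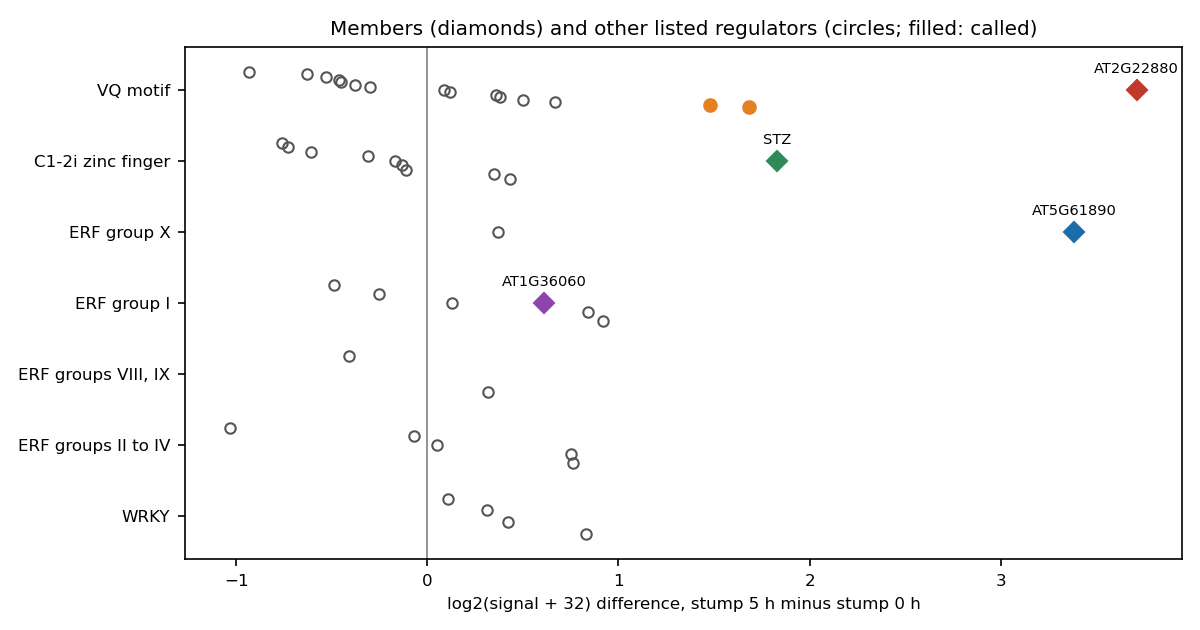
Difference between the stump at 5 h and at 0 h on the log2(signal + 32) scale for the 4 regulators (diamonds) and 41 other listed regulators of 7 families (circles, filled where called by limma). The 2 filled circles, both VQ genes, lie at 1.48 and 1.68, and the diamonds of AT5G61890 (3.38) and AT2G22880 (3.71) lie farthest to the right; these genes and STZ were chosen with their values at 5 h known.

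Genes of the signalling steps around wounding could be read only in part. None of the 29 listed jasmonate genes and 2 of 19 ethylene genes had a probe set assigned to 1 gene, and neither ethylene gene was called at 5 h (EIN3, a transcription factor of ethylene signalling, at -0.35 ± 0.248). Of 14 genes listed for touch and calcium responses 7 could be read, with a median of 0.32 (-0.15 over all probe sets) and 1 called higher and 0 lower, where 1.48% of all probe sets were called higher and 1.16% lower. The called gene, AR781, was at 2.04 ± 0.42 (limma, adjusted p = 0.00403; 75.7 ± 68.7 at 0 h and 352.6 ± 131 at 5 h, n = 4 each), a call lost when the compared groups were fitted alone (adjusted p = 0.0689). CML37 and CML38, calmodulin-like proteins that sense calcium, lay at 0.32 ± 0.267 and 0.43 ± 0.429. Of 20 genes listed for regeneration and callus formation 4 could be read, with a median of -0.17 and 1 called higher against the same shares, and BBM (BABY BOOM), an AP2-type regulator of embryo and root meristem identity, was the only called one at 1.81 ± 0.365 (adjusted p = 0.00314 by limma; 19.3 ± 8.6 at 0 h and 147.7 ± 31.3 at 5 h, n = 4 each), a call lost with the larger pseudocount of the alternatives, where the difference was 0.90.

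Genes next to the 4 regulators on the chromosomes could be read only in part. Within 3 genes on either side, by the order in the RefSeq annotation of TAIR10.1, 9 neighbours had a probe set. For STZ the only one was AT1G27700, 3 genes away. Differences of the 9 at 5 h ran from -0.59 to 0.67, with 0 called by limma and 1 at an unadjusted p under 0.05. Over all probe sets 1.48% were called higher and 1.16% lower, so the lack of a call among 9 genes says little about them.

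The genes whose values followed each regulator most closely were taken by Pearson's r over the 30 arrays, among 6210 probe sets assigned to 1 gene and brighter on average than the median probe set, and the arrays share their group structure. For AT5G61890 they were AT5G39580 (r = 0.885), AT5G16010 (r = 0.86) and AT1G14780 (r = 0.844). For AT2G22880 they were the same first 2, AT5G39580 (r = 0.93) and AT5G16010 (r = 0.909), and then AT4G36500 (r = 0.902). AT5G39580 had a mean signal of 78.7 at 0 h, 1089 at 5 h, 435.2 at 13 h and 288.3 at 22 h and was at 24.3 or below in the 8 dpg groups and the section. Here and for the genes below, a likeness of group means follows largely from the choice by r on these same arrays. It is therefore no separate result.

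STZ was followed at lower values of r by AT5G35735 (0.83), the VQ gene AT3G56880 described above (0.798) and AT3G54150 (0.795). AT5G35735 had mean signals of 110.9 at 0 h, 480.9 at 5 h and 189.1 at 13 h. It was lowest in the section, at 32.2, as STZ was. AT1G36060 had another set: AT5G09300 (r = 0.908), AT3G19430 (r = 0.888) and AT2G25420 (r = 0.886). All of these had their highest means in the 8 dpg tip and stump, with AT3G19430 at 7203 and 7039 there, 1814 in the tip at 4 dpg, 69.9 in the stump at 0 h and 29.7 in the section.

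**Figure D4:**
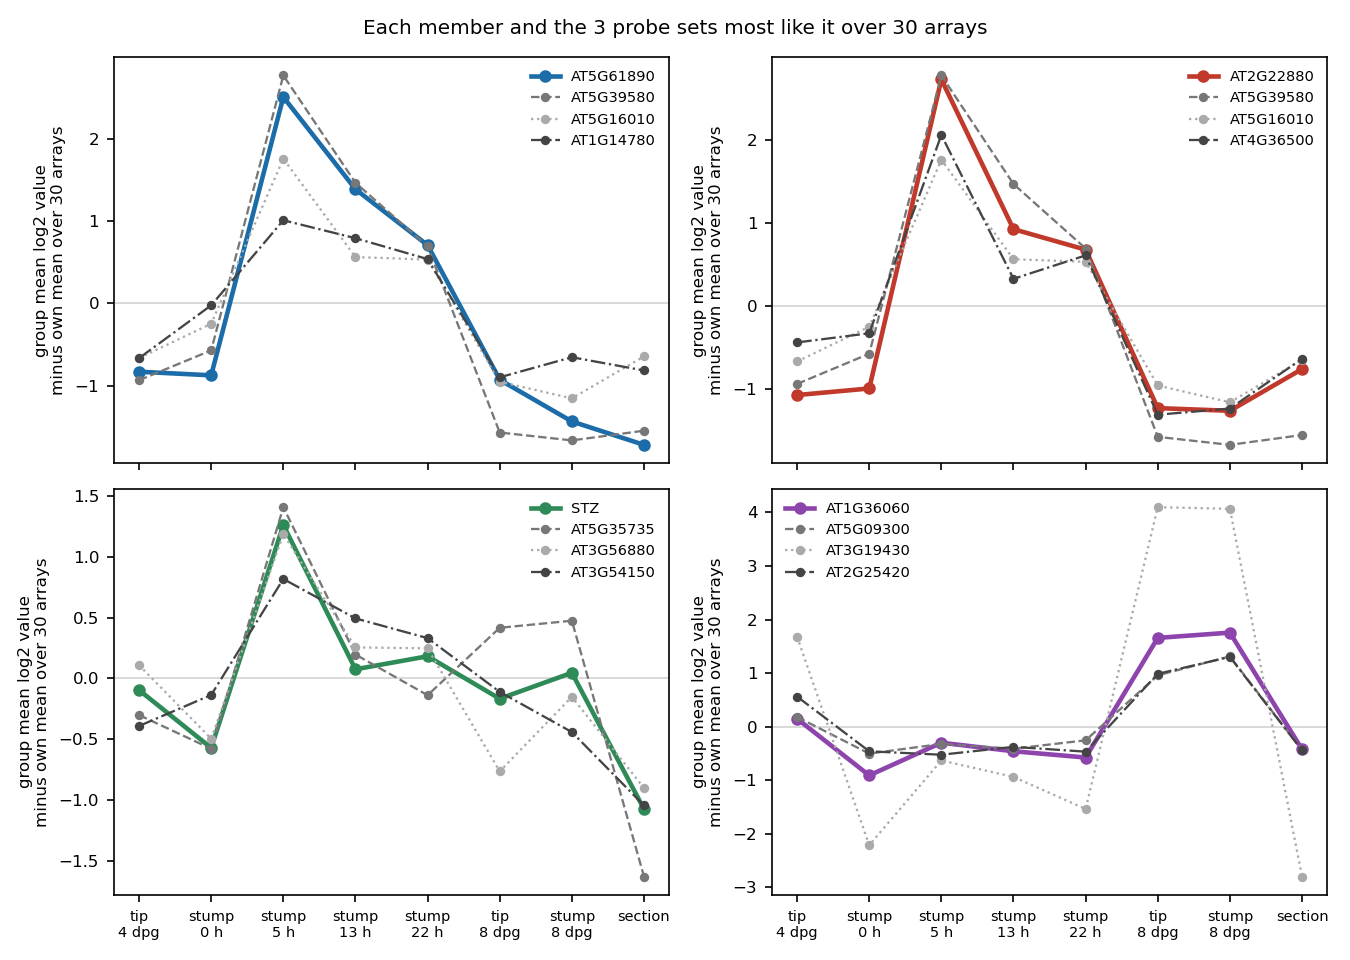
Group means of log2(signal + 32), each minus the probe set's own mean over the 30 arrays, for the 4 regulators (thick lines) and the 3 probe sets with the highest Pearson's r to each (thin lines). The sets of AT5G61890, AT2G22880 and STZ peak in the stump at 5 h, and that of AT1G36060 is highest in both 8 dpg groups. The likeness within each set follows largely from the choice by r on these same arrays.

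All the differences from 0 h rest on the same 4 arrays, of which replicate 1 had the lowest weight of all arrays when weights were estimated (0.223) and was the highest 0 h array for AT5G61890, AT2G22880 and STZ and the lowest for AT1G36060. Centring each array on its median, which moves the median difference over all probe sets at 5 h from -0.15 to about 0, gave 3.61 for AT5G61890, 3.94 for AT2G22880, 2.06 for STZ and 0.84 for AT1G36060.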

How the data were processed

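Total RNA (50 ng) from pools of at least 25 tissue pieces was labelled by the two-cycle protocol and hybridised to 30 ATH1 arrays, per the labels' protocols. The authors deposited a linear MAS5 intensity (signal) for every probe set on each array. MAS5 is named in the submitters' processing notes without a version. Trimmed by 2%, the array means ranged from 246.46 to 248.587, so no further scaling was applied. No 2 arrays held identical values. The number of arrays limits the precision.

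Signals were transformed to log2(signal + 32), which understates changes of dim genes. A single limma 3.58.1 model (R 4.3.3) held every array, with each group as a coefficient and eBayes run with trend=TRUE. P-values from all 22746 probe sets were adjusted by Benjamini-Hochberg, and calls needed a value under 0.05 after adjustment together with a log2 difference of 1 or more in size. The script was tested on simulated data. Plots were drawn with matplotlib 3.10.9.

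A table of the platform gave 1 gene for 13513 probe sets, several for 503 and none for 8730; 13436 of the first matched RefSeq gene IDs (TAIR10.1, used for names and gene order). The members, the gene lists and the tests were chosen with earlier results of these data known. Of 8 planned comparisons, the 3 that use the 0 h stump are given without a test, since its arrays entered that choice. The tested comparisons still took their spread from the fit that held these arrays. The genes named are the 4 members, the 3 probe sets most like each, called genes of the lists at 5 h and family relatives of members. Lists by product description were not made, because the annotation used here holds no such text.

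Replicate numbers recur across groups. Over 94 pairs of same-numbered arrays the median correlation of deviations was -0.0007, 11 exceeded 0.1 and the highest was 0.628. Among 298 pairs of different numbers 25 exceeded 0.1 and the highest was 0.377. Since not every pair exceeded 0.1, the numbers were not taken as pairs. This rule cannot show that no arrays of the same number were handled together. Replicate 1 of the 0 h stump, of the 22 h stump and of the 4 dpg tip were all arrays of high median. The alternatives were pseudocounts of 1 and 128, median centring, quantile normalization, omission of the dimmest 40%, trend=FALSE, array weights, a fit of the compared groups alone, a replicate block and each array left out. A fit without the 4 arrays of high median was added after the data were seen.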

Additional observations from a re-analysis of the deposited data

Results flagged for a closer look

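Among 20 groups of 4 or 5 arrays examined for the 4 regulators, 2 had an array far from the others, where chance gives about 1 in 20. For AT5G61890 the highest array of the stump at 5 h, replicate 1 with 1059.6, stood apart by 0.894 of the range of its group, and the other arrays lay between 870.8 and 889.1. For AT2G22880 the highest array of the stump at 0 h, replicate 1 with 24.9, stood apart by 0.864 of the range, and the other arrays lay between 6.5 and 8.6. Stump at 0 h replicate 1 also had the highest median signal of all arrays, 141.8, and the part of this in its levels was not tested.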

How the results depend on the processing

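The differences at 5 h from 0 h kept their direction for all 4 regulators in every setting tried. For AT2G22880 the value was 5.568 with a pseudocount of 1 and 2.259 with the larger pseudocount, and for AT5G61890 it was 2.384 with the larger one, since the pseudocount compresses dim signals. The STZ difference of the section from the stump labelled 8 dpg was called with a pseudocount of 1 (-1.489, adjusted p = 0.0364), without the dimmest 40% of probe sets (-1.12, adjusted p = 0.0312), with array weights (-1.183, adjusted p = 9.71e-05), in a fit of the compared groups alone (-1.12, adjusted p = 0.00703) and without the arrays of high median (-1.12, adjusted p = 0.00522), all by limma. Without the arrays of high median STZ in the stump labelled 8 dpg minus 0 h, a comparison read without a test, was 1.186.

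The values that changed sign in the planned comparisons, those from the 0 h stump being read without a test, were uncalled. With median centring they were 0.001 (AT2G22880, stump labelled 8 dpg minus 4 dpg tip) and, for the 8 minus 4 dpg tip, 0.017 (AT2G22880), 0.075 (AT5G61890) and 0.103 (STZ). The last was 0.076 with array weights and 0.357 once the arrays of high median were left out, where STZ in the section minus 0 h was 0.066. For AT5G61890, tip minus stump at 4 dpg was -0.06 with the larger pseudocount and -0.034 with quantile normalization, which gave 0.13 for the 8 minus 4 dpg tip. Leaving out 1 array gave ranges of -0.094 to 0.412 (AT2G22880, section minus 0 h), -0.147 to 0.051 (AT2G22880, 4 dpg tip minus 0 h), -0.936 to 0.047 (AT5G61890, stump labelled 8 dpg minus 0 h), -0.332 to 0.652 (AT5G61890, 4 dpg tip minus 0 h), -0.271 to 0.173 (AT5G61890, 8 minus 4 dpg tip), -0.167 to 0.57 (STZ, stump labelled 8 dpg minus 4 dpg tip) and -0.38 to 0.357 (STZ, 8 minus 4 dpg tip). Untested differences of the later stumps changed sign as well. Among them, AT1G36060 at 22 h minus 0 h was -0.06 without the arrays of high median. STZ at 22 h minus the 4 dpg tip ran from -0.031 to 0.706 with 1 array left out. The cause of these changes was not tested.

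Counts over all probe sets moved with the setting. From 0 h, those at 5 h, 13 h and 22 h were 599, 450 and 335 as reported, 234, 238 and 182 with the larger pseudocount, 295, 279 and 206 with array weights, and 139, 166 and 77 in a fit of the compared groups alone. Without the arrays of high median 22 h gave 670, and leaving out 1 array gave 344 to 1078, 328 to 842 and 213 to 549. The count of the 4 dpg tip minus 0 h, 494, became 245 (larger pseudocount), 299 (array weights) and 54 (compared groups), or 281 to 989 with 1 array left out. For the stump labelled 8 dpg minus 0 h, 1547 became 797 (larger pseudocount) and 663 (compared groups), or 974 to 2306. For the section minus 0 h, 2318 became 1008 (larger pseudocount) and 569 (compared groups), or 1217 to 3478, and with the larger pseudocount the section gave 2484 (from 4054) against the stump labelled 8 dpg and 2402 (from 3926) against the 8 dpg tip. For the stump labelled 8 dpg minus the 4 dpg tip, 271 became 684 (array weights) and 532 (arrays of high median left out), or 123 to 309. For the 8 minus 4 dpg tip, 101 became 375 (array weights) and 220 (arrays of high median left out), or 25 to 110. The 8 dpg tip minus stump, 0 as reported, gave 39 with array weights and 15 with the compared groups. The 2 other regulators called at 5 h became 1 with the larger pseudocount, 1 with array weights, 1 with the compared groups alone and 6 without the arrays of high median, or 1 to 3 with 1 array left out. With the replicate block, AT5G61890 at 5 h stayed at 3.383, the count at 5 h was 703, and no call named here changed.

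Groups of 3 to 5 arrays limit the precision, and many AT2G22880 signals are under 16 units, with no detection call to set them against background.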
